A study of Mus musculus with 2 samples.

Results

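Neutrophils were examined among CD45+ cells sorted from neonatal mouse hearts 7 days after myocardial infarction (MI). They were selected on their transcripts, as barcodes with at least 500 genes, at most 10% mitochondrial UMIs, at least 1% of UMIs from *S100a8* and *S100a9*, at least 3 UMIs summed over *Cxcr2*, *Retnlg*, *Ngp* and *Camp*, at most 1 UMI each of *Csf1r* and *Ccr2*, fewer than 3 of *Cd79a* and fewer than 2 of *Cd3e*. A UMI is a molecular tag that counts 1 captured transcript. The selection held 407 of the 10998 deposited barcodes, 195 in the WT library and 212 in the *Lyve1* KO library, and 7561 barcodes in all met the limits on genes and mitochondrial UMIs.

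The study asked what LYVE-1, a hyaluronan receptor of lymphatic endothelium and of some macrophages, does in the immune cells of the infarcted newborn heart. Both groups had MI at postnatal day 2 and were 9 days old at collection. The groups were labelled WT and *Lyve1* KO, and the study's methods and results use *Lyve1* KO for a global deletion, with macrophage-specific deletion named separately. Each group was a pool of 5 hearts in 1 library (10x Genomics 5′ scRNA-seq of live, 7-AAD- CD45+ cells), there was no uninjured group, and the counts used here carry no map from cells to hearts, so intervals below are 95% intervals that cover counting error only and no difference was tested.

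Neutrophils are short-lived granulocytes made in the bone marrow. They load their granules in order while they mature: the proteases of primary granules first, then the antimicrobial proteins of secondary granules, then the gelatinases of tertiary granules. The transcripts of the primary and secondary granule proteins fall away before the cell enters the blood, and the receptors for chemokines rise. After MI neutrophils are among the first cells to enter the injured muscle, where they clear debris and release chemokines and cytokines such as CXCL2 and IL-1β.

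The WT library held 67968938 UMIs and the KO library 61555917. The median depth of the neutrophils was 7666 UMIs (range 1135–37878) and 1909 genes in WT, and 7940.5 UMIs (696–106320) and 2007.5 genes in KO. This was lower than the median over all barcodes within the limits, which was 11577 UMIs in WT and 13560.5 in KO. Of the barcodes, 9 sequences were shared between the libraries, none of them (0) among the neutrophils.

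The label neutrophil was checked on neutrophil genes that the selection did not use and on lists of other lineages. The monocyte, B cell and T and NK cell lists hold *Csf1r*, *Cd79a* and *Cd3e*, which the selection capped. The sums of these lists were thus partly fixed by the selection. All 17 of the other neutrophil markers listed were tested, meaning that they had at least 100 UMIs over both libraries. The receptor for G-CSF, *Csf3r*, was at 1532 CPM in WT and 1555 in KO neutrophils (UMIs of the gene per 1000000 UMIs of the same cells), against 144 and 139 CPM in monocyte-profile cells and 3.57 and 2.30 CPM in B cell-profile cells. The neutrophil surface marker *Ly6g* was at 227 and 211 CPM, with 0 UMIs in macrophage-profile and B cell-profile cells. The markers of other lineages were mostly low. The highest was the monocyte list, at 391.1 CPM in WT and 392.1 in KO, most of it *Ly6c2* (337 and 342 CPM), against 6030 and 5606 CPM for the list in monocyte-profile cells, which *Ly6c2* helped select. It was at 991 and 801 CPM in immature and 174 and 143 CPM in mature neutrophils, the ranges described below. Summed over 8 genes, the macrophage list was at 71.1 CPM in WT and 58.5 in KO, led by *Adgre1* (46.4 and 37.8 CPM) with *Cd163* at 0, against 15934 CPM in WT macrophage-profile cells. *C1qa* and *C1qb*, which are on this list, helped select the macrophage-profile cells. The limit on *Csf1r* also set aside cells in which the list was higher, as given below. The 4 basophil and mast cell genes, the eosinophil granule genes *Prg2* and *Epx*, and the endothelial genes *Kdr* and *Cdh5* were at 0 UMIs in both libraries. The B cell list summed to 18.8 and 28.5 CPM (led by *Ighm*), the T and NK cell list to 39.3 and 52.1 CPM (led by *Cd3d*), and the cardiomyocyte list to 24.7 and 39.8 CPM (led by *Myl2*).

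The limit on *Csf1r* removed many cells that otherwise met the selection. It set aside 112 WT and 101 KO barcodes, and 107 and 97 of these were over no other limit. In the cells set aside by any upper limit, 112 WT and 102 KO, *Csf3r* was at 1590 CPM in WT and 1702 in KO. *Retnlg* was at 5974 and 5800 CPM in them, against 8785 and 7887 CPM in the neutrophils kept. *Retnlg* was part of the selection, a part that the cells set aside also met, so its level is no separate check of them. The 2 sets of cells set aside also held other transcripts, since the macrophage list was at 1056 CPM in WT and 91.0 in KO, and the B cell list at 22.9 and 479 CPM. In KO 1 of these cells was over the limit on *Cd79a*, and in WT 0 were. Just inside this limit, 78 WT and 86 KO neutrophils had exactly 1 *Csf1r* UMI, and just outside it 51 and 38 barcodes had exactly 2. Fewer cells lay close to the *S100a8* and *S100a9* limit, with 2 WT and 6 KO neutrophils between 1% and 1.5% and 10 and 26 barcodes between 0.5% and 1%. The limit on *Csf1r* decided membership more than any other upper limit. Ratios in all cells set aside by the upper limits (112 WT and 102 KO) are given below for some of the genes described.

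*Lyve1* (chromosome 7 from 110850607 to 110863239, GRCm38) was nearly absent from neutrophils, with 6 UMIs in WT and 7 in KO. In macrophage-profile cells, which express the gene, it was at 465 CPM in WT and 20.1 in KO, so the libraries followed their labels. In B cell-profile cells the share with a *Lyve1* UMI was 0.855% in WT and 8.82% in KO.

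Neutrophils were 195 of 4197 cells within the limits in WT (4.65%, 4.03–5.33, Clopper-Pearson) and 212 of 3364 in KO (6.30%, 5.50–7.18). The difference was 1.66 percentage points (0.627 to 2.71, Newcombe). With the cells set aside included, the shares were 7.31% and 9.33%, a difference of 2.02 points (0.769 to 3.29). The difference depended on the denominator. Of the cells within the limits, 1379 in WT and 631 in KO were macrophage-profile cells, so the denominator held fewer of these in KO. Their part in the difference was not tested. Of the deposited barcodes, 73.5% were within the limits in WT and 63.7% in KO, and as a share of all barcodes neutrophils were 3.41% and 4.01%, a difference of 0.598 points whose interval (−0.109 to 1.31) includes 0. Cells with Y-linked UMIs and no *Xist* UMI, which come from male hearts, held 80 WT and 70 KO neutrophils, and cells with *Xist* only held 17 and 24. Their shares differed by 0.825 points (−0.555 to 2.28) in male and 0.813 points (−0.450 to 2.14) in female cells. Both intervals include 0. Cells with neither kind of UMI held 96 WT and 117 KO neutrophils, and there the share differed by 4.28 points (1.54 to 7.10).

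Most neutrophils in both libraries were mature. Cells were thinned at random to 4400 UMIs, which left out 24 WT and 16 KO cells of lower depth, and were ordered by the log2 ratio of UMIs of the mature genes *Cxcr2*, *Stfa2l1* and *Asprv1* over those of the immature genes *Ngp*, *Camp* and *Ltf*, with 1 added to each sum. *Cxcr2* encodes the receptor for CXCL2 and its kin, *Stfa2l1* a stefin and *Asprv1* a protease, whereas *Ngp*, *Camp* and *Ltf* encode granule proteins. Cells below −1 were called immature, those above 1 mature and the rest middle. The index ran from −9.18 to 6.73 in WT, with a median of 5.52, and from −9.13 to 7.03 in KO, with a median of 5.49. Few cells lay near the limits between ranges: 1 WT and 4 KO cells were within 0.5 of −1, and 0 and 6 within 0.5 of 1.

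In the mature range lay 151 of 171 WT cells (88.3%, 82.5–92.7) and, in KO, 166 of 196 (84.7%, 78.9–89.4). The immature range held 15 WT cells (8.77%, 4.99–14.1) and 21 KO cells (10.7%, 6.76–15.9), and the middle 5 and 9. The immature share was 1.94 points higher in KO, with an interval for counting error from −4.38 to 8.07, which includes 0. With 1 library per genotype the difference was not tested. Immature cells were deeper, with medians of 24035 UMIs in WT and 22801 in KO against 7725 and 7819.5 in mature cells. Hence the few immature cells held 22.2% of all neutrophil UMIs in WT and 26.7% in KO, and values summed over all neutrophils are given beside those of the mature range.

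**Figure D1:**
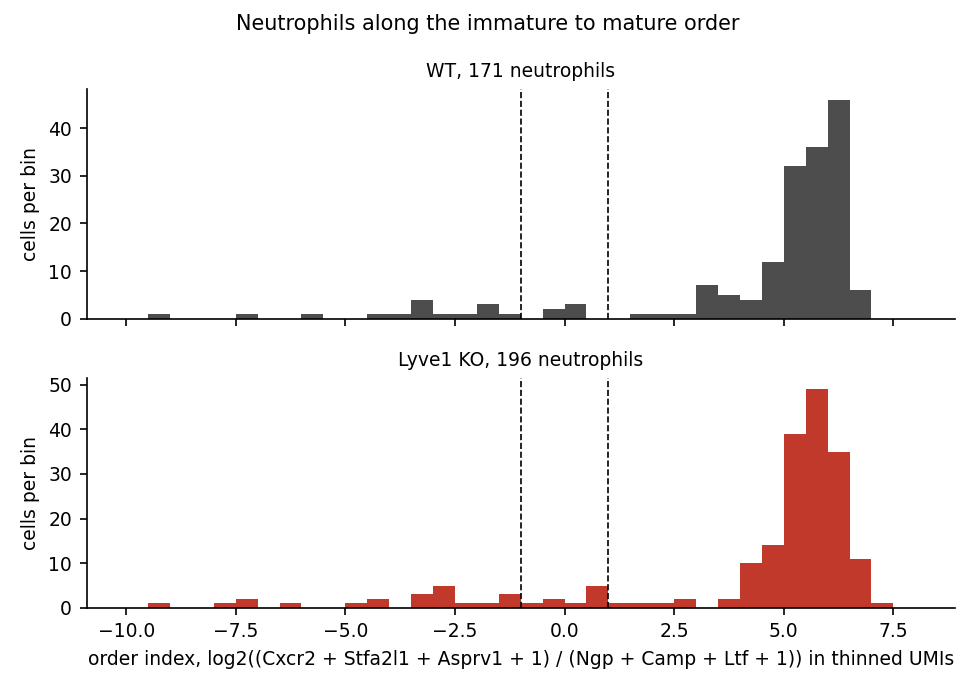
Number of thinned neutrophils (y axis, cells per bin of 0.5) by order index (x axis, log2 scale) in the WT and *Lyve1* KO libraries, with dashed lines at −1 and 1. In both panels most cells lie in 1 peak on the mature side, at medians of 5.52 and 5.49, with a thin tail of 15 and 21 immature cells.

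Along this order the secondary granule genes were higher on the immature side and the inflammatory genes on the mature side, as a description of the order and not as a test. Of 3678 genes tested, 19.8% were at least 2-fold higher on the mature side in both libraries and 3.78% at least 2-fold higher on the immature side, on the log2(CPM + 10) scale used for all log2 ratios below. All 8 secondary granule genes listed were higher on the immature side, among them *Ltf*, which built the order and was bound to be. *Lcn2*, which encodes the iron-siderophore-binding protein lipocalin 2, was at 15481 CPM in immature, 5872 in middle and 587 in mature WT cells, and at 14340, 4734 and 449 CPM in KO. *Chil3*, which encodes a chitinase-like protein, was at 2399, 303 and 2.54 CPM in WT and at 2575, 168 and 4.54 CPM in KO. *Cd177*, a neutrophil surface glycoprotein gene, was at 1092, 635 and 51.7 CPM in WT and at 1054, 855 and 53.0 CPM in KO. These 3 genes thus fell step by step from immature to mature in each library.

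Other genes of the granules had their own places in the order. *Mmp8*, neutrophil collagenase, and *Retnlg*, a resistin-like gene, were highest in the middle range of each library. *Mmp8* was at 2298, 3852 and 529 CPM from immature to mature in WT and at 2017, 3171 and 582 CPM in KO. *Retnlg* was at 9889, 34713 and 7140 CPM in WT and at 8464, 21954 and 6285 CPM in KO, and was part of the selection. The middle range rests on only 5 WT and 9 KO cells. Of the 5 tertiary granule genes, *Slc11a1* was the 1 past 2-fold in both libraries, higher on the mature side, beside 19.8% of all genes. The gelatinase gene *Mmp9* was at 1548 CPM in immature and 1478 CPM in mature WT cells. None of the 6 primary granule genes was tested: *Elane* and *Ctsg*, which encode neutrophil elastase and cathepsin G, had 0 UMIs in both libraries and *Mpo*, myeloperoxidase, had 4 in each. A count of 0 allows up to 3 UMIs. Transcripts of these 3 proteases and enzymes of the earliest granules were thus at or near 0 in both libraries.

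The 7 genes with the largest ratios toward the immature side, beside the 3 that built the order, were *Chil3*, *Lcn2*, *Serpinb1a*, *Cd177*, *Fcnb*, *Itgb2l* and *Golim4*. C/EBP factors, which include C/EBPε, drive granule gene transcription in developing neutrophils, and their motif was looked for in the 250 bases before the transcription starts of these genes and of *Camp*, *Ngp* and *Ltf* (RefSeq, GRCm38.p6). The letters searched were TTGCNNAA on both strands. Of 9 promoters found for the 10 genes, those of *Ngp*, *Ltf*, *Lcn2* and *Fcnb* held a match, against 9.56% of 32851 promoters of the same length, and the genes were chosen after their levels were seen. The *Lcn2* window, set by its RefSeq start, lies inside the gene as placed by GENCODE. The 60 bases around its match overlap 1 exon. The 60 bases around 1 match are shown for 3 of them, because these genes mark the immature end, with the match in capitals.
*Ngp*, chr9:110419645-110419704, plus strand: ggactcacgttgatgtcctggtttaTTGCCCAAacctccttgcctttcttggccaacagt
*Ltf*, chr9:111019192-111019251, plus strand: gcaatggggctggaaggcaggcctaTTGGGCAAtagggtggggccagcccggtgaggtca
*Fcnb*, chr2:28084967-28085026, minus strand: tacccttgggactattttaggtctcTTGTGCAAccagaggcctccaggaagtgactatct
The matches start 138, 75 and 123 bases before the transcription start. A match is a run of letters and not evidence of binding.

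On the mature side, *Il1b*, which encodes the pyrogenic cytokine IL-1β, was at 34.5 CPM in immature and 5657 CPM in mature WT cells, and at 208 and 4963 CPM in KO. *Ccl6*, a CC chemokine gene, was at 39.8 and 3442 CPM in WT and at 33.2 and 3873 CPM in KO. *Pla2g7*, the platelet-activating factor acetylhydrolase gene, was at 5.30 and 1239 CPM in WT and at 5.53 and 1309 CPM in KO. All 3 were thus higher on the mature side in each library. Of the 14 cytokine and chemokine genes tested, 10 were at least 2-fold higher on the mature side in both libraries and none (0) on the immature side. The same count was 9 of 14 for homing and adhesion receptors and 5 of 7 for pattern recognition genes, beside 19.8% of all 3678 genes. The share on the immature side was 3.78% of all genes. Of 7 NADPH oxidase and extracellular trap genes, 0 were higher on the mature side and 1 on the immature side.

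**Figure D2:**
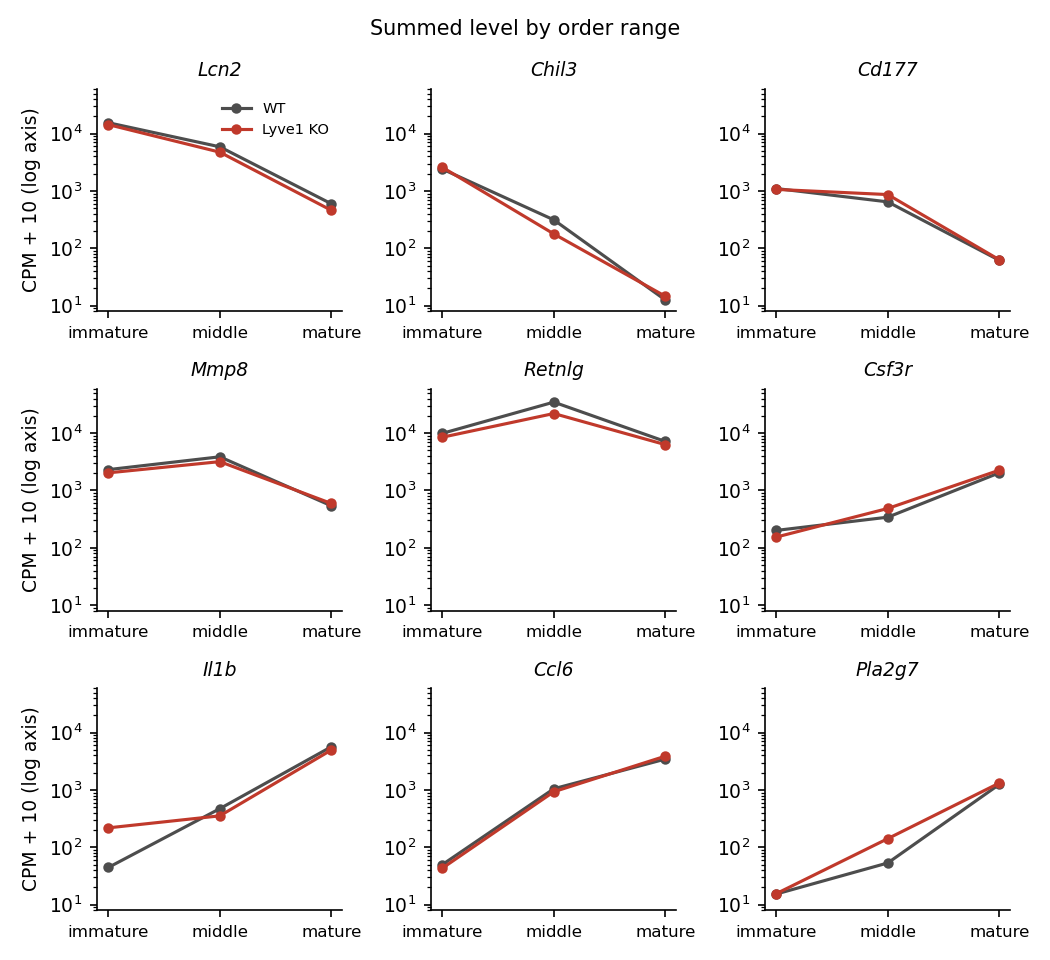
Summed level (y axis, CPM + 10, log axis) of 9 genes in the immature, middle and mature ranges (x axis), with WT in grey and *Lyve1* KO in red. *Lcn2*, *Chil3* and *Cd177* fall from immature to mature, *Mmp8* and *Retnlg* peak in the middle range of 5 WT and 9 KO cells, and *Il1b*, *Ccl6*, *Pla2g7* and *Csf3r* rise.

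Between the libraries, most genes of the neutrophils were at near the same level. The median log2 ratio of KO over WT was −0.0070 over the 3678 genes. Genes at least 2-fold higher in KO numbered 13 (0.353%) and those at least 2-fold lower 34 (0.924%). None (0) of the 17 neutrophil markers outside the selection, the 7 NADPH oxidase genes, the 14 glycolysis and hypoxia genes, the 7 stefin A genes or the 11 interferon-stimulated genes tested was past 2-fold. Among them, *Cyba*, a subunit of the NADPH oxidase, was at 1423 CPM in WT and 1447 in KO, and the interferon-induced *Ifitm3* at 591 and 701 CPM. The decoy IL-1 receptor *Il1r2* was at 1367 and 826 CPM and the activating receptor *Trem1* at 1054 and 704 CPM, log2 ratios of −0.72 and −0.58. The stefin A genes are near-identical copies that can share reads, as are *Bcl2a1b* and *Bcl2a1d* and the *Trim30* and *Trim12* genes below, and their single values are uncertain. Since the transcripts of the secondary granule genes *Ltf* (3543 and 3670 CPM) and *Lcn2* (4090 and 4448 CPM) also lay close, the libraries differed little in granule genes, and *Fcnb*, the 1 of these 8 past 2-fold, had 219 of its 264 KO UMIs in a single cell.

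The cytokine and chemokine genes held many of those lower in KO. Of the 14 tested, 7 were at least 2-fold lower in KO and 0 higher, beside 0.924% and 0.353% of all genes, and the list's median log2 ratio was −0.97. In the mature range alone it was also 7 of 14, with a median of −0.93, whereas with the 3 order ranges at equal weight the median was −0.50 and in the few female cells −0.33. *Cxcl2* (chromosome 5 from 90903871 to 90905938), which encodes a neutrophil-attracting chemokine that neutrophils also produce, was at 3692 CPM in WT (6286 UMIs) and 1052 in KO (2141 UMIs), 3.51-fold lower (3.34–3.69). *Ccl3* (chromosome 11 from 83647844 to 83649355), the gene of the chemokine MIP-1α, was at 430 and 92.4 CPM, 4.66-fold lower (3.96–5.50). Its neighbour *Ccl4* was at 302 and 91.4 CPM, 3.30-fold lower (2.79–3.93). The intervals of these 3 folds take each UMI as a separate draw. Few cells held much of the *Cxcl2* and *Ccl4* UMIs, as given below, so the intervals do not cover the spread between cells. *Ccl4* was also not lower in KO in female cells or in the cells set aside, as given below.

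Other members were lower by smaller folds or in few cells. *Csf1*, the macrophage growth factor gene, was at 485 CPM in WT and 197 in KO (2.46-fold lower, 2.18–2.78), and *Tnf* at 273 and 124 CPM (2.20-fold lower, 1.88–2.57). *Tnf* was under 2-fold in 4 of 14 alternatives, with log2 ratios of −0.07 with the order ranges at equal weight, −0.59 in male cells, −0.90 without cells that carry markers of other lineages and −0.98 without upper limits. *Csf1* was under 2-fold with the ranges at equal weight (−0.91) and in female cells (−0.03). *Il1a* was at 64.6 and 3.93 CPM, but in 14 WT cells and 2 KO cells only, and *Cxcl3*, at 122 and 42.8 CPM, in 13 and 7 cells. These 2 ratios therefore rest on very few cells. Not all of the list was low in KO. *Il1b* was at 4153 and 3360 CPM, *Ccl6* at 2602 and 2622 CPM, and *Osm*, the oncostatin M gene, at 278 and 378 CPM, log2 ratios of −0.30, 0.01 and 0.43.

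**Figure D3:**
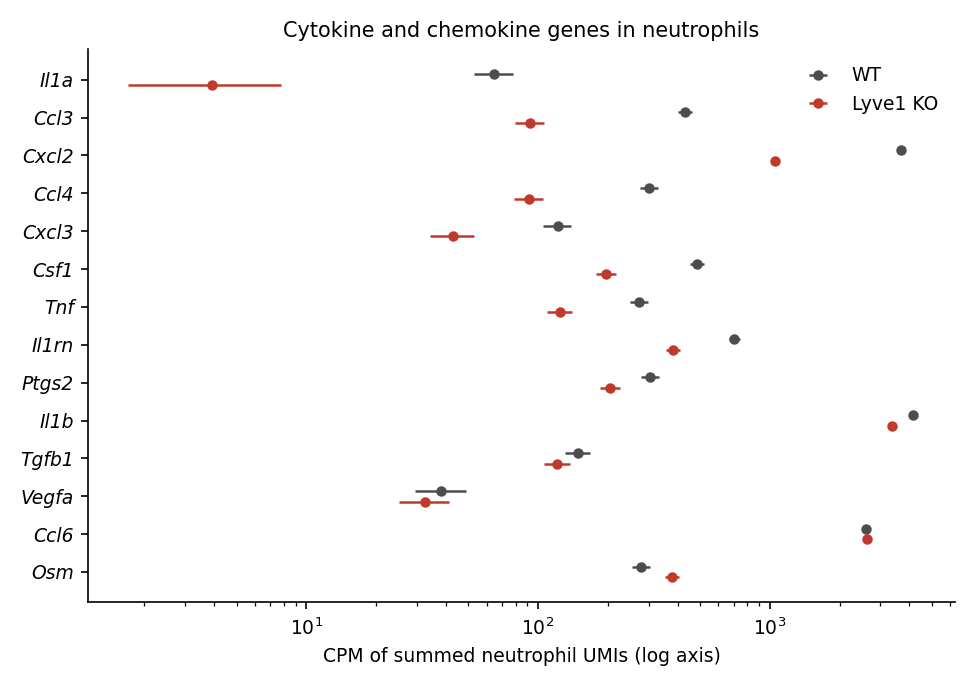
CPM of summed UMIs (x axis, log axis) of the 14 cytokine and chemokine genes tested in WT (grey) and *Lyve1* KO (red) neutrophils, with bars for the 95% Poisson interval of counting error. *Il1a*, *Ccl3*, *Cxcl2*, *Ccl4*, *Cxcl3*, *Csf1* and *Tnf* were at least 2-fold lower in KO, whereas *Ccl6* lay at 2602 and 2622 CPM.

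Genes outside that list were also at least 2-fold lower in KO, 5 of them in the receptor, adhesion and survival lists. *Cd14*, the lipopolysaccharide co-receptor, was at 1267 CPM in WT and 535 in KO (2.37-fold lower, 2.20–2.55). *Icam1*, an adhesion molecule, was at 107 and 33.4 CPM, and *Nfkb1*, an NF-κB subunit, at 192 and 76.2 CPM. *Ccrl2*, an atypical chemokine receptor, was at 440 and 172 CPM. The 2 genes of homing and adhesion that were past 2-fold, of 14, were *Icam1* and *Ccrl2*, and of 7 pattern recognition genes it was *Cd14* alone. Over all 3678 genes tested, 0.924% were at least 2-fold lower, a share that stands beside each count in this paragraph. *Bcl2a1b* and *Bcl2a1d*, which encode survival proteins of the BCL-2 family, were at 358 and 136 CPM and at 129 and 25.6 CPM, and were 2 of 10 survival and death genes past 2-fold. *Acod1*, the enzyme that makes itaconate, was at 870 and 232 CPM and the cell cycle inhibitor *Cdkn1a* at 206 and 46.7 CPM. Of the genes described for SiglecF+ neutrophils of the infarct, *Icam1*, *Tnf* and *Nfkb1* were past 2-fold, of 5 tested, while *Siglecf* itself was at 13.5 CPM in WT and 14.2 in KO and was too low to be tested.

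*Cxcl2* transcripts were held by few cells. They were found in 98 of 195 WT and 75 of 212 KO neutrophils, and the 10 cells with the most held 58.4% of the *Cxcl2* UMIs in WT and 48.4% in KO. The highest single cells had 842, 799 and 706 UMIs in WT and 172, 139 and 128 in KO. The sums thus weigh a small number of strongly expressing cells. Counted as cells at equal depth, 77 of 171 WT cells (45%, 37.4–52.8) and 65 of 196 KO cells (33.2%, 26.6–40.2) had a *Cxcl2* UMI, a difference of −11.9 points (−21.6 to −1.87). At 10 or more UMIs the counts were 48 WT cells (28.1%, 21.5–35.4) and 37 KO cells (18.9%, 13.7–25.1), −9.19 points (−17.8 to −0.528). Within the mature range the latter difference was −9.50 points (−19.1 to 0.269), an interval that includes 0. In B cell-profile cells, which were deeper (median 12641 and 14252 UMIs, not thinned), 3.99% in WT and 2.15% in KO had a *Cxcl2* UMI, far below these shares. The libraries thus differed in how many cells had *Cxcl2* and in how much those cells held: the mean over cells with 10 or more thinned UMIs was 68.6 UMIs in WT and 29.2 in KO, and the median 31 and 21.

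All 48 WT and 37 KO cells with 10 or more *Cxcl2* UMIs lay in the mature range, so they were set beside the mature cells with none, 74 in WT and 103 in KO. The split by *Cxcl2*, and its restriction to mature cells, were made after its values were seen. In WT, *Il1b* averaged 36.5 UMIs a thinned cell in the *Cxcl2*-rich cells, *Ccl3* 6.58 and *Cd14* 17.3, against 20.1, 0.811 and 1.80 in those with none. In KO the same genes averaged 29.4, 1.51 and 6.76 against 17.0, 0.136 and 0.961. These 3 inflammatory genes were thus higher in the *Cxcl2*-rich mature cells of each library. *Retnlg* and *S100a8* ran the other way, at 12.1 and 121 UMIs in the *Cxcl2*-rich WT cells against 32.0 and 179 in those with none, and at 18.3 and 190 against 25.8 and 220 in KO. *Cxcr2* was at 4.02 and 4.82 UMIs in WT and 4.92 and 4.99 in KO. The selection itself used *Retnlg*, *S100a8* and *Cxcr2*.

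NF-κB is a known activator of many of these genes. Its letters, GGG, any 3 bases and then TTCC, were searched on both strands in the 250 bases before the starts of 11 genes named above (*Cxcl2*, *Cxcl3*, *Ccl3*, *Ccl4*, *Tnf*, *Il1a*, *Csf1*, *Icam1*, *Nfkb1*, *Bcl2a1b* and *Bcl2a1d*), of which 9 had a promoter in the RefSeq table. Those of *Cxcl2*, *Cxcl3* and *Csf1* held a match, against 4.65% of all 32851 promoters. They are shown because these 3 genes are among the 7 of the cytokine list that were lower in KO, with each match in capitals. In *Cxcl2* and *Cxcl3* the first capital run holds overlapping matches on both strands.
*Cxcl2*, chr5:90903777-90903836, plus strand: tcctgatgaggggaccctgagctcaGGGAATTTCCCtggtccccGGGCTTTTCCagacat
*Cxcl3*, chr5:90786003-90786062, plus strand: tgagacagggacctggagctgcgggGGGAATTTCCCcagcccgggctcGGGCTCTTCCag
*Csf1*, chr3:107760589-107760648, minus strand: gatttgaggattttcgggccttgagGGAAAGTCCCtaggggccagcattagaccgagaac
The first matches start 97, 73 and 154 bases before the transcription start. No match in the other 6 promoters says only that these letters are not in that window.

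In the cells set aside by the upper limits most of these genes were lower in KO by less. *Cxcl2* was at 2280 CPM in WT and 1491 in KO (log2 ratio −0.61), *Ccl3* had a log2 ratio of −0.81 and *Csf1* of −0.99, whereas *Ccl4* was at 0.20. *Tnf* was at −0.81, *Cd14* at −0.87, *Nfkb1* at −0.85, *Bcl2a1b* at −0.61, *Il1a* at −0.56 and *Icam1* at −0.50 on the same scale. *Acod1* (−0.43), *Cdkn1a* (−0.41), *Ccrl2* (−0.29) and *Bcl2a1d* (−0.14) were nearer to 0, and *Cxcl3*, at 35.7 and 4.74 CPM, was the 1 gene of these past 2-fold (−1.63). With these cells added to the neutrophils, the list's median log2 ratio was −0.82. The sign was thus the same in both sets of cells for each of these genes but *Ccl4*, and the size depended on the selection. The cells set aside were unlike between the libraries in other transcripts, with the macrophage list at 1056 CPM in WT and 91.0 in KO, the B cell list at 22.9 and 479 CPM and the proliferation list at 458 and 77.7 CPM, and the part of these in the ratios was not tested. In monocyte-profile cells *Cxcl2* and *Ccl3* were higher in KO, with log2 ratios of 0.61 and 0.94, and in macrophage-profile cells they were at 0.17 and −0.15. The difference between these cell types was not tested, because each genotype was 1 library.

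The male and female cells of each pool, which are from different hearts, gave the same direction for *Cxcl2*, with log2 ratios of −2.02 in male and −2.17 in female cells, and for *Ccl3*, with −2.86 and −1.39. The female cells were only 17 in WT and 24 in KO, and their ratios rest on very few of them. Of the thinned female cells 25% in WT and 31.8% in KO were immature, against 12.5% and 11.9% of the male cells. Immature cells were deeper, so they weigh more in the female sums, and their part in the ratios was not tested. For *Cxcl2*, 456 of 556 female WT UMIs and 133 of 156 female KO UMIs were in 2 cells, and for *Ccl3* 61 of 67 and 30 of 31. *Ccl4*, *Cd14* and *Nfkb1* were lower in KO among male cells (−3.27, −2.37 and −2.17) and not among female cells (3.98, 0.89 and 0.06). For *Ccl4* 1 cell held 73 of the 81 female KO UMIs, and female WT cells had 2 UMIs in all. In male WT cells 1 cell held 186 of 364 *Ccl4* UMIs. The share of cells with 10 or more *Cxcl2* UMIs was 33.3% and 19.4% in male cells and 12.5% and 13.6% in female cells, the latter from 2 of 16 and 3 of 22 cells. Which hearts of each pool gave the high cells was not tested. The early response gene *Junb* was at 2531 CPM in WT and 3854 in KO and *Atf3* at 694 and 679 CPM, log2 ratios of 0.60 and −0.03.

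Genes higher in KO were fewer, 13 against 34, and some rested on 1 cell. With the 3 order ranges at equal weight this turned, with 50 higher and 41 lower, and with no filter on low counts it was 45 and 47. *Gdpd3*, which encodes a lysophospholipase D, was at 13.5 CPM in WT and 81.6 in KO, 6.04-fold higher (3.89–9.79). *Itgax*, which encodes the integrin CD11c, was at 30 and 95.3 CPM, 3.18-fold higher (2.33–4.42). *Slco3a1*, an organic anion transporter gene, was at 31.7 and 79.1 CPM and *Rhob*, a small GTPase gene, at 581 and 1255 CPM, 2.49-fold (1.82–3.46) and 2.16-fold (2.01–2.33) higher. *Rhob* was past 2-fold in 11 of 14 alternatives, with log2 ratios of 0.97 in male cells and 0.93 without cells that carry markers of other lineages. *Slco3a1* was past 2-fold in 13 of 14, with a lowest log2 ratio of 0.48. A *Gdpd3* UMI was found in 6 of 171 WT cells (3.51%) and 49 of 196 KO cells (25%) at equal depth, 21.5 points more (14.7 to 28.3). For *Itgax* the shares were 13.5% and 32.7%, for *Slco3a1* 11.1% and 26.5%, and for *Rhob* 45% and 64.3%, with intervals of the difference above 0 in each. In B cell-profile cells, not thinned, the share with a UMI was 2.56% and 7.74% for *Gdpd3*, 0.855% and 0.860% for *Itgax* and 1.14% and 1.51% for *Slco3a1*, below that of the KO neutrophils. For *Gdpd3* the share was thus also higher in KO in these cells, which were deeper in KO. The share was 45% and 48.2% for *Rhob*, which B cells thus also carried. In the mature range the log2 ratios were 2.14, 1.58, 1.41 and 1.02, and in the cells set aside 1.87, 1.38, 1.39 and 0.73. These 4 genes were thus higher in KO in both sets of cells. In macrophage-profile cells *Gdpd3* and *Itgax* were also higher in KO (log2 ratios 1.23 and 1.41), and *Rhob* was not (−0.47). The higher levels of *Gdpd3* and *Itgax* in KO were thus not particular to neutrophils.

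**Figure D4:**
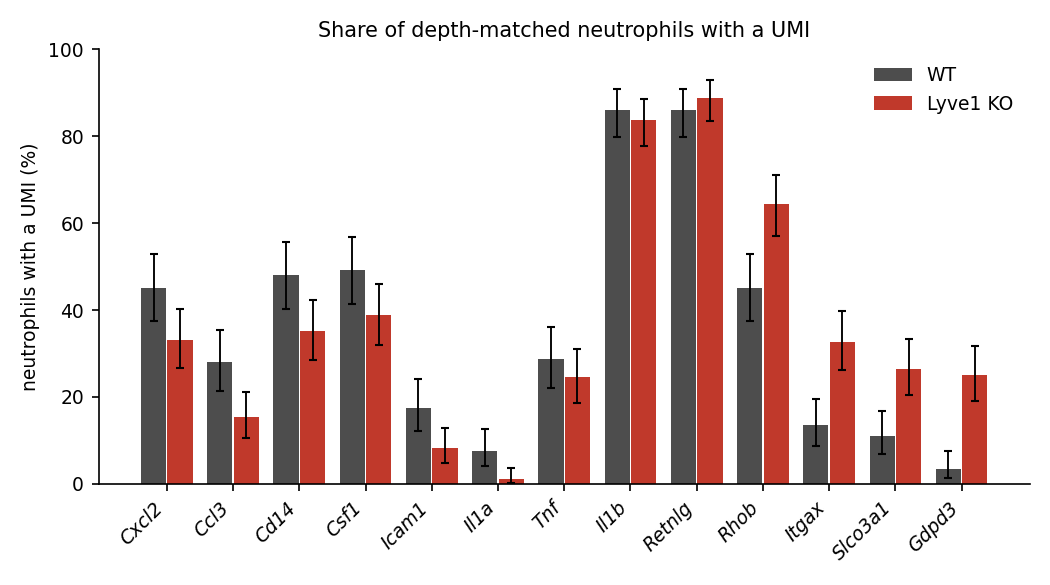
Share of thinned neutrophils with at least 1 UMI of each gene (y axis, %) in WT (grey, 171 cells) and *Lyve1* KO (red, 196 cells), with 95% Clopper-Pearson intervals of counting error. *Cxcl2* went from 45% in WT to 33.2% in KO, *Il1b* was at 86.0% and 83.7%, and *Gdpd3* went from 3.51% to 25%.

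Of the 10 genes with the highest ratios, *Hist1h4d*, *Tuba1b*, *Gm42047*, *Tubb5* and *H2afx* lost most of the difference when the cell with the most UMIs of the gene was left out of each library, with log2 ratios of 0.78, 0.15, 0.11, 0.13 and 0.48 in place of 2.06, 1.25, 1.19, 1.05 and 0.98. They trace to 1 KO cell of 106320 UMIs and 6305 genes, with an order index of −4.04, which alone held 5.22% of the KO neutrophil UMIs. Of the 796 UMIs of the 14 proliferation genes in KO, 687 were in that cell, including 134 of 138 for *Top2a*, a topoisomerase of dividing cells, and 141 of 147 for *Mki67*, the gene of the Ki-67 antigen. The other 211 KO neutrophils had 109 proliferation UMIs and the 195 WT neutrophils 123. Only 2 KO neutrophils had 10 or more proliferation UMIs (687 and 15) and 0 WT neutrophils did. The next deepest KO neutrophil had 34299 UMIs, and whether the deepest barcode held more than 1 cell was not tested. Without it, 5 genes were at least 2-fold higher in KO and 32 lower.

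Position was a further feature that the selection did not use. *Gdpd3* (126766334–126775649), *Itgax* (128129547–128150657) and *Slco3a1* (74275419–74554780) all lie on chromosome 7, as does *Lyve1*, and start 15.9, 17.3 and 36.6 Mb from it. At the other end, *Trim30d* (104470014–104507849) and *Trim12a* (104299894–104315466), members of the tripartite motif family, and *Hbb-bs* (103826534–103828096), a haemoglobin gene, lie 6.38, 6.55 and 7.02 Mb from it. Of all genes tested 7.40% were on chromosome 7, against 4 of the 13 at least 2-fold higher in KO (30.8%) and 4 of the 34 lower (11.8%). The 4 higher genes include *Mki67*, with 141 of its 147 KO UMIs in the deepest barcode, without which 5 genes in all were higher. Among the 10 highest and 10 lowest ratios it was 3 and 3 genes. *Trim30d* and *Trim12a*, with 208 and 179 UMIs in WT, had 0 UMIs in KO, and so did *Dynlt1b*, a dynein light chain gene of chromosome 17 with 174 UMIs in WT. Against a floor of 3 UMIs over the KO neutrophils they were at least 82.9-fold, 71.3-fold and 69.3-fold lower. These 3 genes were also at or near 0 in KO monocyte-profile, macrophage-profile and B cell-profile cells, where *Dynlt1b* was at 106, 129 and 55.6 CPM in WT, so their absence was not particular to neutrophils. *Hbb-bs* was at 74.0 CPM in WT and 14.2 in KO neutrophils and also lower in KO B cell-profile cells (33.4 and 4.05 CPM), which do not make haemoglobin, so its level moved with the library in cells of both kinds.

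**Figure D5:**
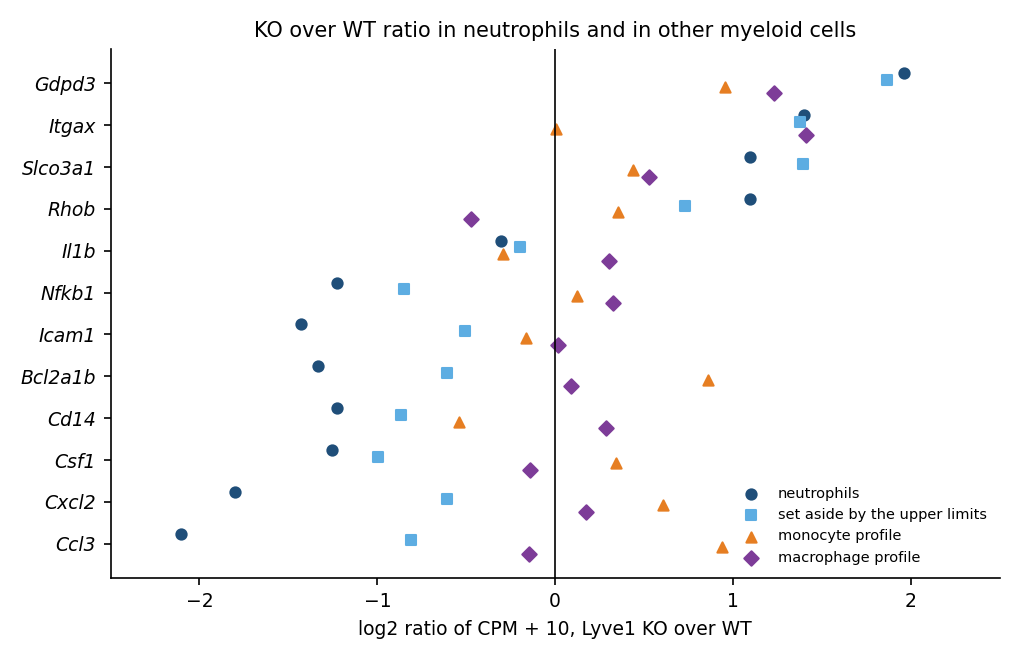
Log2 ratio of CPM + 10, *Lyve1* KO over WT (x axis), of 12 genes in neutrophils, in cells set aside by the upper limits, and in monocyte-profile and macrophage-profile cells. *Cxcl2* and *Ccl3* lie below 0 in neutrophils and in the cells set aside and above 0 in monocyte-profile cells, whereas *Gdpd3* lies above 0 in all 4.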

How the data were processed

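The authors deposited unnormalised UMI counts, 1 matrix of genes by barcodes for each library, and the submitters' processing notes name Cell Ranger 8.0.1 and mm10. The study kept cells with at least 500 genes and at most 30% mitochondrial content, and assigned cells to hearts and removed doublets from variants in the reads, which was not repeated here. The limit on mitochondrial UMIs used here, 10%, was stricter. Neutrophils were selected by the stated limits, and the members, gene lists and comparisons were chosen with earlier results of these data known. Upper limits on *Csf1r*, *Ccr2*, *Cd79a* and *Cd3e* were the main guard against doublets, no doublet caller was run, and 18 WT and 24 KO neutrophils carried at least 3 UMIs of macrophage, B cell, T and NK cell or cardiomyocyte markers and were left out in an alternative. For T and NK cells that alternative used *Cd3e*, *Thy1*, *Nkg7* and *Klrb1c*, set after seeing that *Cd3d* and *Cd3g* are read in neutrophils.

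For levels (CPM), a gene's UMIs over the neutrophils of a library were scaled to their total. The log2 ratios took CPM + 10 over the 3678 genes with at least 100 UMIs over both libraries, and past 2-fold is a description. With 1 library per genotype no test was run. Shares have Clopper-Pearson, differences of shares Newcombe, CPM exact Poisson and folds conditional binomial intervals. The intervals of CPM and of folds take each UMI as independent and do not cover the spread between cells. For shares of cells, cells were thinned to 4400 UMIs, the 10th percentile of depth rounded down. Monocyte-profile cells had at least 3 *Ly6c2* and 2 *Ccr2* UMIs, macrophage-profile cells at least 10 UMIs of *C1qa*, *C1qb* and *C1qc* and 2 of *Csf1r*, and B cell-profile cells at least 3 of *Cd79a*, all outside the neutrophils with under 1% *S100a8* and *S100a9*. Named genes were *Lyve1*, the selection and order genes, up to 4 of the most abundant genes and any gene past 2-fold of each list, the 10 highest and 10 lowest ratios between libraries among genes in at least 5% of cells, and the 10 highest on each side of the order. Genes named outside that rule were *Osm*, *Elane*, *Ctsg*, *Csf3r*, *Ly6g*, *Il1r2*, *Trem1* and *Cd163*, from the same lists and chosen after their values were seen. The ratio and the thinning were checked on simulated data. Python 3.11.15, numpy 2.4.6, scipy 1.17.1 and pandas 2.3.3 were used, with gene positions from GENCODE vM21. Promoters of chromosome 18 were left out of the motif counts.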

Additional observations from a re-analysis of the deposited data

Results flagged for a closer look

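Barcodes outside the limits on genes and mitochondrial UMIs were not part of any comparison, and 9 of them in the KO library and 1 in the WT library met every other part of the selection. Of the 9, 8 had fewer than 500 genes and 2 had over 10% mitochondrial UMIs.

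For 5 named genes the log2 ratio of KO over WT had opposite signs in female and in male cells and a size of at least 0.5 in both, a difference that was not tested and that rests on 17 WT and 24 KO female neutrophils. A larger share of the thinned female cells than of the male cells was immature in each library. The log2 ratios in female and male cells were 3.98 and −3.27 for *Ccl4*, 0.89 and −2.37 for *Cd14*, 0.59 and −2.22 for *Cdkn1a*, 0.74 and −2.58 for *Hbb-bs*, and −1.31 and 1.90 for *H2afx*. For *Ccl4* the levels were 9.27 CPM in WT and 294 CPM in KO female cells, and 476 and 40.3 CPM in male cells. Single cells made much of this: 1 cell held 73 of the 81 *Ccl4* UMIs of female KO cells and 10 of their 11 *Cdkn1a* UMIs were in 1 cell, *Hbb-bs* had 1 UMI in female WT and 4 in female KO cells, and 49 of the 70 *H2afx* UMIs of male KO cells were in 1 cell. For *Cd14*, 2 cells held 85 of 104 UMIs in female WT cells. The signs also differed, below that size in 1 or both, for *Nfkb1* (0.0569 and −2.17), *Tubb5* (−0.0619 and 1.88) and *Lcn2* (−0.24 and 0.25).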

How the results depend on the processing

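The neutrophil share was higher in KO under all 7 alternatives, by 0.598 points as a share of all barcodes and by 1.5 to 2.19 points under the others. None of them took macrophage-profile cells out of the denominator. The difference in the immature share stayed within the counting interval under every alternative, and had the opposite sign among male cells (−0.56 points).

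Genes at least 2-fold higher in KO numbered 13 of 3678, and 21 with 1 CPM added, 45 of 13567 (0.332%) with no filter on low counts, 50 with the order ranges at equal weight, 21 of 2099 in male cells, 5 without the deepest cell and 6 without the top cell of each gene. Those lower numbered 34 of 3678 (0.924%), 41 with the order ranges at equal weight, 14 of 611 (2.29%) in female cells and 51 of 2099 (2.43%) in male cells, where fewer genes reached the minimum count. With no filter on low counts, genes higher on the immature side numbered 265 of 13567 (1.95%) in place of 139 of 3678 (3.78%). The other counts were within 1.5 times of the main ones. The sign of a named gene past 2-fold changed in female cells for *Cdkn1a* (0.59), *Hbb-bs* (0.74), *Tubb5* (−0.0619), *Ccl4* (3.98), *Cd14* (0.89) and *Nfkb1* (0.0569), without upper limits for *Tuba1b* (−0.21) and *Tubb5* (−0.51), and in the mature range for *Tuba1b* (−0.20). The cause was not tested. *Cxcl2*, *Ccl3*, *Acod1*, *Icam1*, *Gdpd3* and *Itgax* stayed past 2-fold under all 14 alternatives. Of the 14, here and above, the alternative with no filter on low counts changes only which genes are counted. It leaves the ratio of a single gene as it was and is no check of it. The alternatives without upper limits (for the ratios and the immature share), without the deepest or the top cell, in the mature range and on thinned sums were chosen after seeing the data.

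No library could be left out and no paired analysis was possible because each genotype was 1 library of pooled hearts. Depth limits genes under 100 UMIs over both libraries, and the immature and middle ranges rest on 15 and 5 WT and 21 and 9 KO cells.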
